A study of Mus musculus with 24 samples.

Results

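Among 24 expression arrays of mouse MLO-Y4 cells, 2 sets of 3 arrays were compared, which stand in columns 2, 10 and 18 and in columns 1, 9 and 17 of the deposited table. The 24 columns were numbered in deposited order and every 8th column was taken as a set, which gives 8 sets of 3 arrays, and the comparison uses 6 arrays of the 24. In columns 2, 10 and 18 the transcripts of low-oxygen response genes such as Ccng2, Bnip3, Eno2 and Hilpda were lower, and those of inflammatory genes such as Cxcl1, Nfkbiz and Tnf were higher, than in columns 1, 9 and 17. The largest of these differences was 4.62-fold, for Ccng2. These genes were grouped after their values were seen: of 23 measured genes in an earlier list of hypoxia targets and glycolysis only Bnip3 was called, and the mean of that list overlapped between the sets. Of 20 measured NF-kB subunits and targets only Nfkbiz was called, and of 13 measured C-X-C chemokines only Cxcl1. Over all genes, 0.0565% were called higher. The medians of these inflammatory lists were near that of all genes, at 0.04 and 0.03 against 0.01 on the log2 scale.

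MLO-Y4 is an osteocyte-like line from mouse; osteocytes are the cells embedded in bone that sense mechanical load. The labels give its strain background as a mixture of C57B1/6, BALB/c and DBA2, and for each array a treatment (flow or sham) and a time. Per the labels, cells on collagen-coated glass were under oscillating flow for 2 h at 1 Hz, with shear that peaked at 10 dyn/cm2, and sham cells were kept in static chambers. RNA was taken at once (0 h) or after a further 2, 8 or 24 h in fresh medium, with 3 arrays for each of 8 labels.

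The sets do not follow these labels. Columns 1 and 2 are both labelled sham 0 h (replicates 1 and 2). Column 9 is labelled sham 2 h (replicate 3) and column 10 flow 2 h (replicate 1), while columns 17 and 18 are both labelled flow 8 h (replicates 2 and 3). Each set therefore mixes 3 labels, and only the pair in columns 9 and 10 differs in its label, so the difference between the sets is reported as one between array sets and neither as an effect of flow nor of time. The sources call the arrays of a label triplicates and do not say that they came from separate cultures. The spread given here is that between arrays, which may be technical, and their small number limits the precision.

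The sets were chosen by the similarity of the arrays over the same expression values. Every gene was thus used in choosing them, and the differences below are a description without a test. As the measure of similarity, the Pearson correlation over 12393 genes of the deviations from each gene's mean was taken; the genes are not independent and share the arrays. Over all 24 arrays, the 24 pairs of the same set had a mean correlation of 0.387, the 24 pairs of the same label 0.155 and the 228 other pairs -0.108. The mean over pairs was 0.369 at a distance of 8 columns and 0.421 at 16 columns, against -0.321 at 4 columns and -0.348 at 12 columns.

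**Figure D1:**
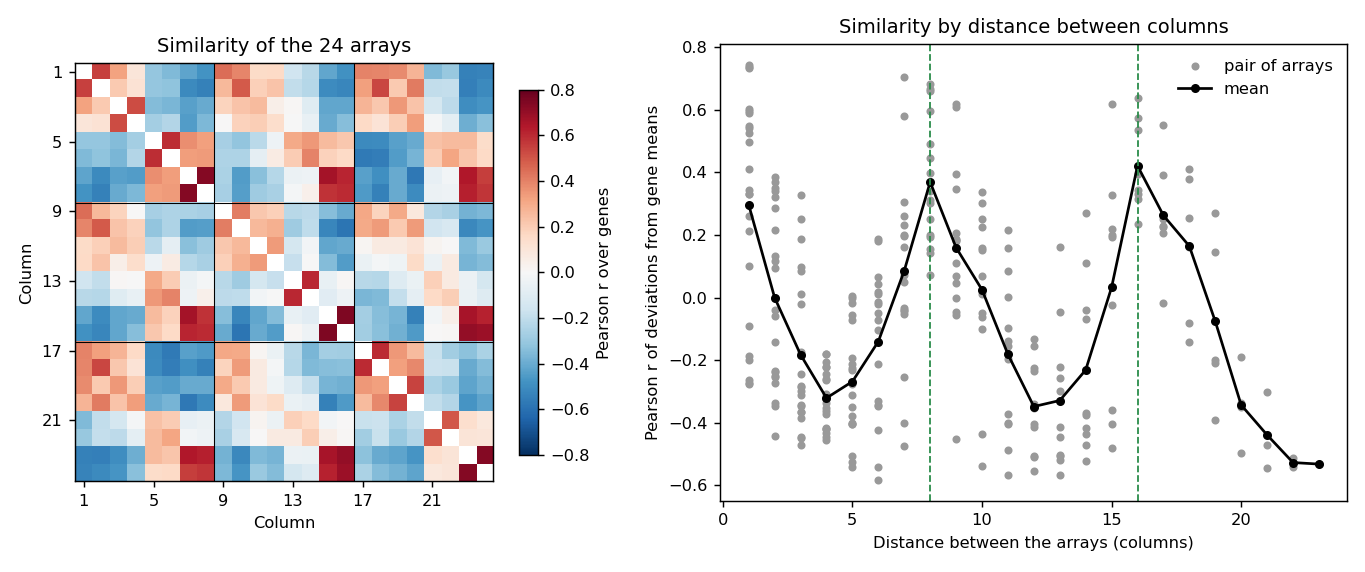
Pearson correlation of the 24 arrays over 12393 genes, as deviations from each gene's mean: at left for each pair of columns, with black lines between blocks of 8 columns, and at right against the distance between the columns (grey points are pairs, black points means). The mean peaks at 8 and 16 columns (dashed green lines), where it is 0.369 and 0.421.

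The sets of columns 1, 9 and 17 and of columns 2, 10 and 18 were close to each other. The 6 pairs within a set had a mean correlation of 0.420 (0.310 to 0.534) and the 9 pairs between the sets 0.379 (0.180 to 0.596), so the ranges overlap. Neighbours in the same block of 8 columns were more alike than arrays of the same set: columns 1 and 2, 9 and 10, and 17 and 18 had a mean correlation of 0.518, whereas the 6 pairs from different sets and blocks had 0.310. For 22 of the 24 arrays the nearest array stood in the next or previous column, for 16 it carried the same label, and for 2 it belonged to the same set. The similarity of all genes thus separates these neighbouring sets only weakly, and the genes described below are those on which they differ most.

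The measures of array quality did not separate the sets. The log2 difference between the Gapdh control probe sets at the 3′ and 5′ ends lay between -0.196 and -0.0743 on the 24 arrays, and the sets differed by 0.00965 with overlapping arrays. For beta-actin the sets differed by 0.00197, and the array medians, between 6.71 and 6.80 over all arrays, differed by -0.0032 between the set means. The normalization makes the arrays nearly equal in distribution, so the medians could hardly separate the sets. The first quartile was 4.735 to 4.754 in columns 1, 9 and 17 and 4.751 to 4.779 in columns 2, 10 and 18, with a narrow overlap. Osteocyte markers were present in part: Gja1, a gap junction protein of the connexin family, Pdpn and Cd44 had mean log2 values of 13.00, 12.57 and 11.78, but 5 of 14 measured markers, among them Dmp1 and Sost, never reached a log2 value of 6 on the 24 arrays. The mean of the measured osteocyte markers lay between 8.15 and 8.26 in columns 1, 9 and 17 and between 8.23 and 8.25 in columns 2, 10 and 18. Of the markers of osteoclasts and macrophages 9 of 12 stayed below 6 on all arrays, and their mean was 5.01 to 5.06 and 5.05 to 5.15 in the sets. The corresponding ranges were 6.20 to 6.32 and 6.27 to 6.37 for osteoblast markers, and 4.55 to 4.60 and 4.47 to 4.68 for endothelial markers. The part of these quantities in the differences below was not tested.

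When oxygen is scarce, the transcription factor HIF-1, a dimer whose alpha subunit is otherwise hydroxylated by Egln enzymes and destroyed, binds short DNA elements and turns on genes for glycolysis, lactate and pH handling, mitophagy and restraint of growth. Several of these genes also respond to nutrient shortage, hormones and other stress. NF-kB is a family of transcription factors released by inflammatory signals and by mechanical strain, and its early targets include chemokines that attract neutrophils, cytokines, and feedback regulators that limit the response. Osteocytes lie in poorly oxygenated bone and release such signals towards the cells that form and resorb it.

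A gene was called where all 3 arrays of one set lay on the same side of all 3 arrays of the other and the means differed by at least 1.5-fold. Of 12393 genes, 7 (0.0565%) were called higher in columns 2, 10 and 18 and 10 (0.0807%) lower. Without the minimum fold, 963 genes (7.77%) were higher and 474 (3.82%) lower with no overlap. The difference of most genes was small, with a 99th percentile of its absolute value of 0.368 on the log2 scale, a median of 0.01 and 10 genes that differed at least 2-fold. Just inside the fold limit lay Zc3h12a with a log2 difference of 0.61, and just outside it Tnfsf9 with -0.58 and Tfrc with 0.58. These genes just outside, and Abhd18 and Cpeb2, which are called but dim, were picked after their values were seen.

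**Figure D2:**
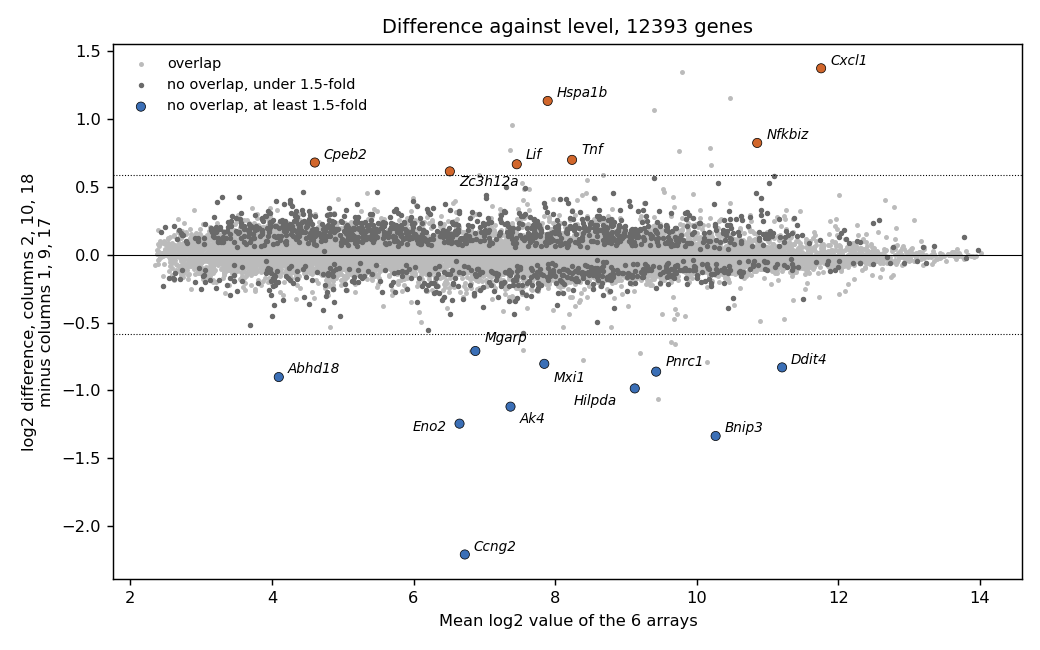
Log2 difference between the set means (columns 2, 10 and 18 minus columns 1, 9 and 17) against the mean log2 value of the 6 arrays for 12393 genes, with dotted lines at 1.5-fold. The 17 called genes are coloured, orange for the 7 that are higher and blue for the 10 that are lower in columns 2, 10 and 18.

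Dim genes leaned towards columns 2, 10 and 18. Of the 4422 genes that did not reach a log2 value of 6 in 3 arrays, 64.6% had the higher mean there, against 46.3% of the 7971 brighter genes. Of the genes without overlap, 67.0% were higher in columns 2, 10 and 18, a share that was 60.3% over the brighter genes and 60.6% after a further quantile normalization. Among the called genes Abhd18 and Cpeb2, an RNA-binding regulator of translation, were dim, and 6 and 9 genes were called higher and lower without them.

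The promoters of Bnip3, Hilpda, Ddit4 and Cxcl1, which hold matches, are shown as examples to place the letters bound by these factors. They were not taken in order of the difference: Ccng2, Eno2, Ak4 and Hspa1b, which differed more than Ddit4, are not shown. All are RefSeq windows of 300 bases, from 250 bases before to 50 bases after a transcript start, in GRCm38.p6 and read along the gene's strand. At least 1 such window was present for 15 of the 17 called genes. Capitals in Bnip3, Hilpda and Ddit4 mark the core letters of the hypoxia response element, ACGTG or GCGTG, or their reverse complement. In Bnip3, 5 matches were found, of which a pair overlaps because CACGTG, which is also the E-box of the clock genes, holds ACGTG on both strands. The capitals in Cxcl1 mark an NF-kB site. The Cxcl1 window also holds the hypoxia core ACGTG as its reverse complement, which is left in small letters. Bnip3 lies at chr7:138909457-138909756 (minus strand), Hilpda at chr6:29272376-29272675 (plus strand), Ddit4 at chr10:59951721-59952020 (minus strand) and Cxcl1 at chr5:90890995-90891294 (plus strand).
Bnip3: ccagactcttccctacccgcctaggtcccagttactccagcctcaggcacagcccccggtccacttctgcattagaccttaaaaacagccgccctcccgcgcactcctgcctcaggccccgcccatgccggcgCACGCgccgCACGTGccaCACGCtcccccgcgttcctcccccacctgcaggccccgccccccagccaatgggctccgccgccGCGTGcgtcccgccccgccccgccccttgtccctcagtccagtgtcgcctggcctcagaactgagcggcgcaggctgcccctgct
Hilpda: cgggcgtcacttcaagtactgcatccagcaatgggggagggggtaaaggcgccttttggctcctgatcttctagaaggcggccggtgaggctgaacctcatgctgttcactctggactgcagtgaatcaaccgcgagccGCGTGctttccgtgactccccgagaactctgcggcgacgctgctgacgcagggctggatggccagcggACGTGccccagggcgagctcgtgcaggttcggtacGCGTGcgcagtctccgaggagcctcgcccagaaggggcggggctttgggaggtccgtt
Ddit4: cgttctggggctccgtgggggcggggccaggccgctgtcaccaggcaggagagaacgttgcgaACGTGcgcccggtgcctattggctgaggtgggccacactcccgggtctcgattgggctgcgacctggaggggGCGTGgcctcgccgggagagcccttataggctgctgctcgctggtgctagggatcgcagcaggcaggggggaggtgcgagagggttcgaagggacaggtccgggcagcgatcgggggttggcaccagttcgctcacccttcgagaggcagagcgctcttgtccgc
Cxcl1: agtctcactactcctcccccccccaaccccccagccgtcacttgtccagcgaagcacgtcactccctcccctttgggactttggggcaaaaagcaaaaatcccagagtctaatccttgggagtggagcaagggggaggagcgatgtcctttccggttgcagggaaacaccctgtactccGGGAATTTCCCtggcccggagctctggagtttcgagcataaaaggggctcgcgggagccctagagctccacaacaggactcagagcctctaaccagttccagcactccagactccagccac

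The hypoxia core in either form was present in a window of 8 of the 10 genes called lower, in 13 of their 16 windows, and in 3 of the 5 genes called higher that had a window. It was present in 43.8% of all 32851 windows of the table. Some windows of Ak4 and of Hilpda overlap and share matches, so the 16 windows are not independent. The share is per window, and the counts of genes, some with several windows, cannot be set directly beside it. Eno2 and Pnrc1 were the genes called lower whose windows did not hold these letters. The NF-kB site was found in 1 of the 5 windows of the genes called higher, that of Cxcl1, in 1 window of a gene called lower, Ak4, and in 4.51% of all windows. The heat shock element was in none of the windows, among them that of Hspa1b, and in 0.603% of all windows. These are matches of letters on both strands, and binding was not measured. The hypoxia core was searched after the values were seen.

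Among the genes called lower were regulators of growth and of the cell cycle. Ccng2, an atypical cyclin associated with arrest of the cell cycle, had log2 values of 8.30, 8.77 and 6.41 in columns 1, 9 and 17 and of 5.33, 5.66 and 5.87 in columns 2, 10 and 18. Columns 1 and 9 were far above the others and column 17 closer to them, without overlap. The difference was -2.21 ± 0.54 on the log2 scale (SE of the fit over 24 arrays, n = 3 against 3), and the second probe set of Ccng2 gave -1.25. The SEs here and below come from a fit without a term for the block of 8 columns.

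Ddit4, which encodes the mTORC1 inhibitor REDD1, read 11.68, 12.04 and 11.14 in columns 1, 9 and 17 and 10.80, 10.67 and 10.91 in columns 2, 10 and 18, a difference of -0.83 ± 0.30. Mxi1, an antagonist of Myc, read 8.34, 8.58 and 7.83 against 7.24, 7.42 and 7.67 and differed by -0.80 ± 0.23, with -0.35 for its other probe set. Pnrc1, a nuclear receptor coactivator, read 9.80, 10.37 and 9.40 against 8.98, 9.15 and 8.85 and differed by -0.86 ± 0.30. Its other probe set was very dim, with means of 2.44 and 2.31, and gave -0.13. For all of these genes column 9 was the highest array and column 17 the lowest of its set.

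Another group served mitochondria, energy metabolism and lipid storage. Bnip3, a mitochondrial protein that promotes mitophagy, read 10.82, 11.24 and 10.74 in columns 1, 9 and 17 and 9.17, 9.05 and 10.57 in columns 2, 10 and 18. Its difference was -1.34 ± 0.57, but column 18 lay only 0.170 below column 17, and the other arrays of its set lay far lower. Eno2, a glycolytic enolase, read 7.43, 7.88 and 6.50 against 6.14, 6.15 and 5.79 and differed by -1.24 ± 0.41.

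Ak4, an adenylate kinase of the mitochondrial matrix, read 7.95, 8.55 and 7.28 against 6.92, 6.44 and 7.07, a difference of -1.12 ± 0.56. Its other probe sets disagreed in size, with -1.34, -0.35 and, with overlap, -0.07. Hilpda, a lipid droplet protein that inhibits lipolysis, read 9.74, 10.07 and 9.04 against 8.52, 8.69 and 8.69, so that the arrays of columns 2, 10 and 18 nearly coincided and the difference was -0.99 ± 0.27. Mgarp, a mitochondrial protein, read 7.08, 7.25 and 7.35 against 6.17, 6.31 and 7.07 and differed by -0.71 ± 0.38; its columns 18 and 1 were almost equal, and its call was lost when the mean of each block of 8 columns was removed. Abhd18 read 4.72, 5.17 and 3.75 against 3.66, 3.62 and 3.66, and thus column 17 was near the level of the other set.

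**Figure D3:**
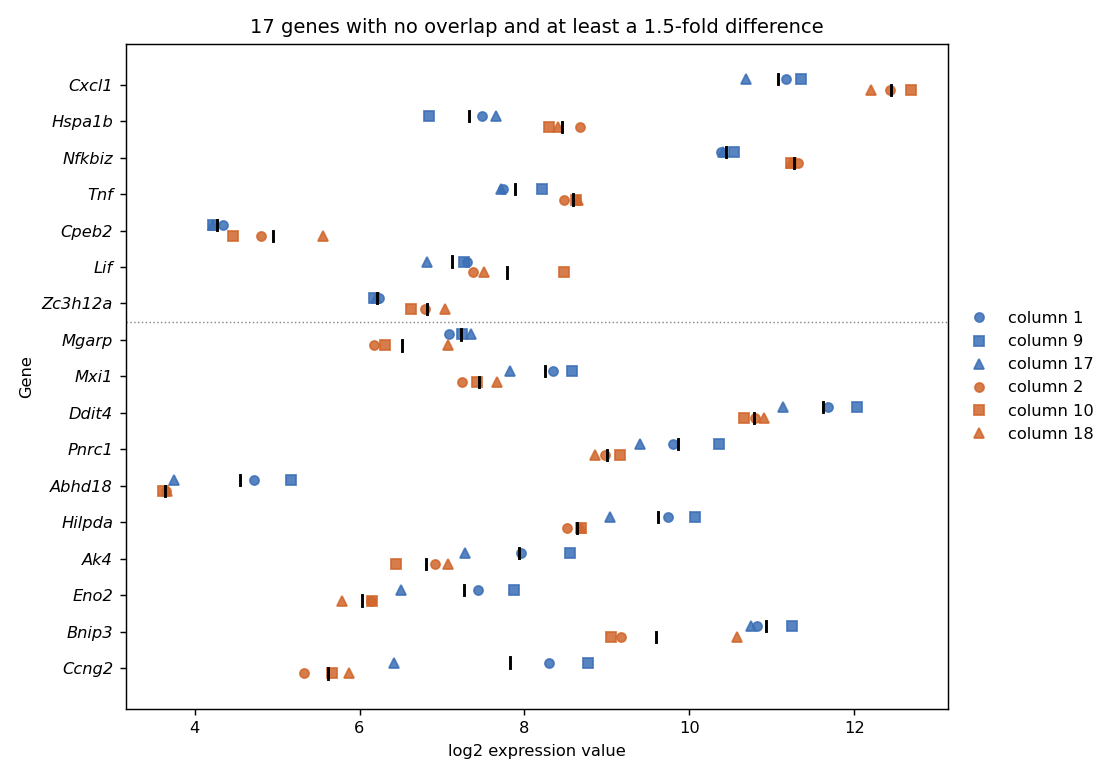
Log2 expression values of the 17 called genes on the 6 arrays, with columns 1, 9 and 17 in blue, columns 2, 10 and 18 in orange, a black tick at each set mean, and circles, squares and triangles for blocks 1, 2 and 3 of 8 columns. Genes above the dotted line were higher and genes below it lower in columns 2, 10 and 18, and the blue and orange triangles of Bnip3, at 10.74 and 10.57, are close together.

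The genes called lower were not equally apart in the blocks of 8 columns. For all 10 the difference was largest between columns 9 and 10 and smallest between columns 17 and 18. For Ccng2 the neighbouring columns differed by -2.97, -3.11 and -0.55 in block 1, 2 and 3, and for Bnip3 by -1.65, -2.19 and -0.17. For these 10 genes the pair with the largest difference is the one whose labels differ, sham 2 h and flow 2 h. The pair of columns 1 and 2, both labelled sham 0 h, differed less for each of them, from -0.91 against -0.94 for Mgarp to -1.03 against -2.11 for Ak4. The 7 genes called higher went otherwise. Between columns 9 and 10 the difference was smallest for 4 of them and largest for 2. For 4 it was largest between columns 17 and 18, both labelled flow 8 h. The label, the block and the array cannot be told apart with 1 pair in each block.

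The wider low-oxygen programme was lower in part of the arrays. Of 23 measured hypoxia targets and glycolysis genes, 1 was called lower (Bnip3) and 0 higher, 20 had the lower mean in columns 2, 10 and 18, and the median difference was -0.18, against 0.01 over all genes. No overlap was seen for 3 of them, Bnip3, Egln1, the oxygen-sensing hydroxylase that marks HIF-1 alpha for destruction (-0.49), and Pfkp, a phosphofructokinase subunit (-0.22); of all genes 3.82% were lower without overlap and 0.0807% were called lower. The median difference within the blocks was -0.24, -0.33 and -0.05, and it lay between -0.32 and -0.07 when an array was left out in turn, at -0.07 without column 17 (flow 8 h replicate 2), -0.08 without column 2 (sham 0 h replicate 2) and -0.11 without column 10 (flow 2 h replicate 1). Without column 18 (flow 8 h replicate 3) 5 of the 23 genes were called lower and 14 were lower without overlap, with a median of -0.32, while of all genes 0.194% were called lower and 8.09% were lower without overlap in that setting. The mean log2 value of the 23 genes was 9.88, 10.00 and 9.99 in columns 1, 9 and 17 and 9.53, 9.53 and 10.01 in columns 2, 10 and 18. Column 18 was thus level with column 9, and the sets overlapped in this mean.

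Pdk1, the kinase that diverts pyruvate away from mitochondria, showed the same overlap, with 8.43, 8.68 and 9.24 in columns 1, 9 and 17 and 7.37, 7.54 and 9.11 in columns 2, 10 and 18 (difference -0.77 ± 0.50). Bhlhe40, a repressor of the circadian clock that also responds to low oxygen, read 10.07, 10.24 and 9.65 against 8.53, 8.34 and 9.91, with column 18 above column 17. Adm, the vasodilator peptide adrenomedullin, read 10.03, 10.43 and 9.42 against 9.06, 9.65 and 9.26, and its sets overlapped as well. The transcript of Hif1a itself differed by 0.11 ± 0.10, with overlapping arrays between 11.40 and 11.72.

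A broader list of 60 targets of HIF-1, drawn up after the values were seen and of which 57 were measured, held 8 of the 10 genes called lower (all but Pnrc1 and Abhd18) and had a median difference of -0.22. Since it was written with these genes in view, its counts describe the group and are no evidence for it. No overlap was seen for 16 of its members, all lower, where 3.82% of all genes were lower without overlap. Ero1a, an oxidase of the endoplasmic reticulum, Gys1, glycogen synthase, and Jmjd6, a hydroxylase, were among them at -0.33, -0.30 and -0.39. P4ha1 and Plod2, enzymes of collagen maturation, were lower by a similar amount (-0.45 and -0.44) with overlap.

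The largest difference among the genes called higher was that of a chemokine. Cxcl1, a ligand of the receptor Cxcr2 that attracts neutrophils, read 11.17, 11.36 and 10.69 in columns 1, 9 and 17 and 12.44, 12.69 and 12.21 in columns 2, 10 and 18. Every array of the second set was well above the first, and the difference was 1.37 ± 0.36 (2.59-fold). The related ligands Cxcl2 and Cxcl5 differed by 1.35 ± 0.58 and 1.15 ± 0.38 but overlapped. Cxcl2 read 9.32, 9.86 and 8.17 against 10.58, 11.00 and 9.82, and Cxcl5 read 10.13, 10.15 and 9.39 against 11.15, 11.88 and 10.10. In both genes column 18 fell just short of column 9, and both were higher in columns 2, 10 and 18 within every block. Of 13 measured C-X-C chemokines 1 was called, where 0.0565% of all genes were called higher.

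Cytokines and their feedback formed a further group. Tnf read 7.74, 8.21 and 7.72 in columns 1, 9 and 17 and 8.48, 8.63 and 8.65 in columns 2, 10 and 18, a difference of 0.70 ± 0.23. Lif, a cytokine of the IL-6 family, read 7.30, 7.26 and 6.81 against 7.38, 8.48 and 7.51 and differed by 0.67 ± 0.34. Column 10 was far above the rest for Lif and column 2 hardly above column 1, and the difference without column 10 (flow 2 h replicate 1) was 0.32; its other, dimmer probe set gave 0.09 with overlap. The call of Lif was lost when the mean of each block of 8 columns was removed. Il6 was at 7.81 and 8.62 in columns 2 and 10, but at 6.81 in column 18, below all arrays of the other set (6.85, 7.21 and 6.86), and differed by 0.77 ± 0.56.

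Of 27 measured interleukins, IL-6 family cytokines and SOCS genes, 2 were called higher and 0 lower, and 22 had the higher mean in columns 2, 10 and 18 with a median difference of 0.18. No overlap was seen for 12 of them, all higher, a share to be set beside the 7.77% of all genes. Over all genes, 0.0565% were called higher and 0.0807% lower. Socs1, an inhibitor of cytokine signalling, read 7.30, 7.36 and 7.34 against 7.87, 7.99 and 7.61 and differed by 0.49 ± 0.17. Clcf1, another cytokine of this family, differed by 0.38, Osmr, a receptor subunit for oncostatin M, by 0.33, and Csf1, the growth factor of osteoclast precursors, by 0.25. The median stayed between 0.12 and 0.20 when an array was left out in turn.

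Regulators of the inflammatory response were also higher. Nfkbiz, an inducible nuclear IkB protein that shapes the choice of NF-kB targets, read 10.39, 10.54 and 10.40 in columns 1, 9 and 17 and 11.32, 11.24 and 11.24 in columns 2, 10 and 18. The arrays within each set nearly coincided (SD 0.084 and 0.0475, n = 3 each), and the difference was 0.82 ± 0.24, with 0.87 for its other probe set. Zc3h12a, the ribonuclease Regnase-1 that degrades cytokine transcripts, read 6.24, 6.18 and 6.20 against 6.80, 6.62 and 7.04 and differed by 0.61 ± 0.24.

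Few other NF-kB genes were apart in the sets. Of 20 measured NF-kB subunits and targets 1 (Nfkbiz) was called, where 0.0565% of all genes were called higher. The median difference of the list was 0.04, and Tlr2, a receptor for bacterial lipoproteins, differed by 0.37 ± 0.19 without overlap. Ccl2, which attracts monocytes, differed by 0.35 ± 0.23 and Ptgs2, the inducible cyclooxygenase, by 0.45 ± 0.25, both with overlap. Nos2 did not reach a log2 value of 6 on the 24 arrays and differed by -0.02, and Pik3r1, a regulatory subunit of phosphatidylinositol 3-kinase, differed by 0.09 with overlap. A list of 32 measured early NF-kB targets drawn up after the values were seen held 5 of the 7 genes called higher, with a median of 0.11. Since it was written with these genes in view, its counts describe the group and are no evidence for it. No overlap was seen for 6 of its members, all higher, where 7.77% of all genes were higher without overlap. Of its members 7 had the lower mean in columns 2, 10 and 18, from -0.01 for Tnfaip3 to -0.48 ± 0.33 for Ier3.

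Hspa1b, which encodes the stress-induced chaperone Hsp70, read 7.48, 6.85 and 7.66 in columns 1, 9 and 17 and 8.68, 8.30 and 8.40 in columns 2, 10 and 18. The difference was 1.13 ± 0.29, and its other probe sets gave 0.97 and 1.03. Hspa1a, its near-identical copy, had a separate probe set at a mean of 3.48, and probes of these genes can share transcripts, so the assignment to Hspa1b is uncertain. Other chaperones hardly differed: of 22 measured heat shock genes 1 was called, where 0.0565% of all genes were called higher. The median difference of the list was 0.03, and Dnaja1, a co-chaperone of Hsp70, was higher without overlap by 0.14.

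**Figure D4:**
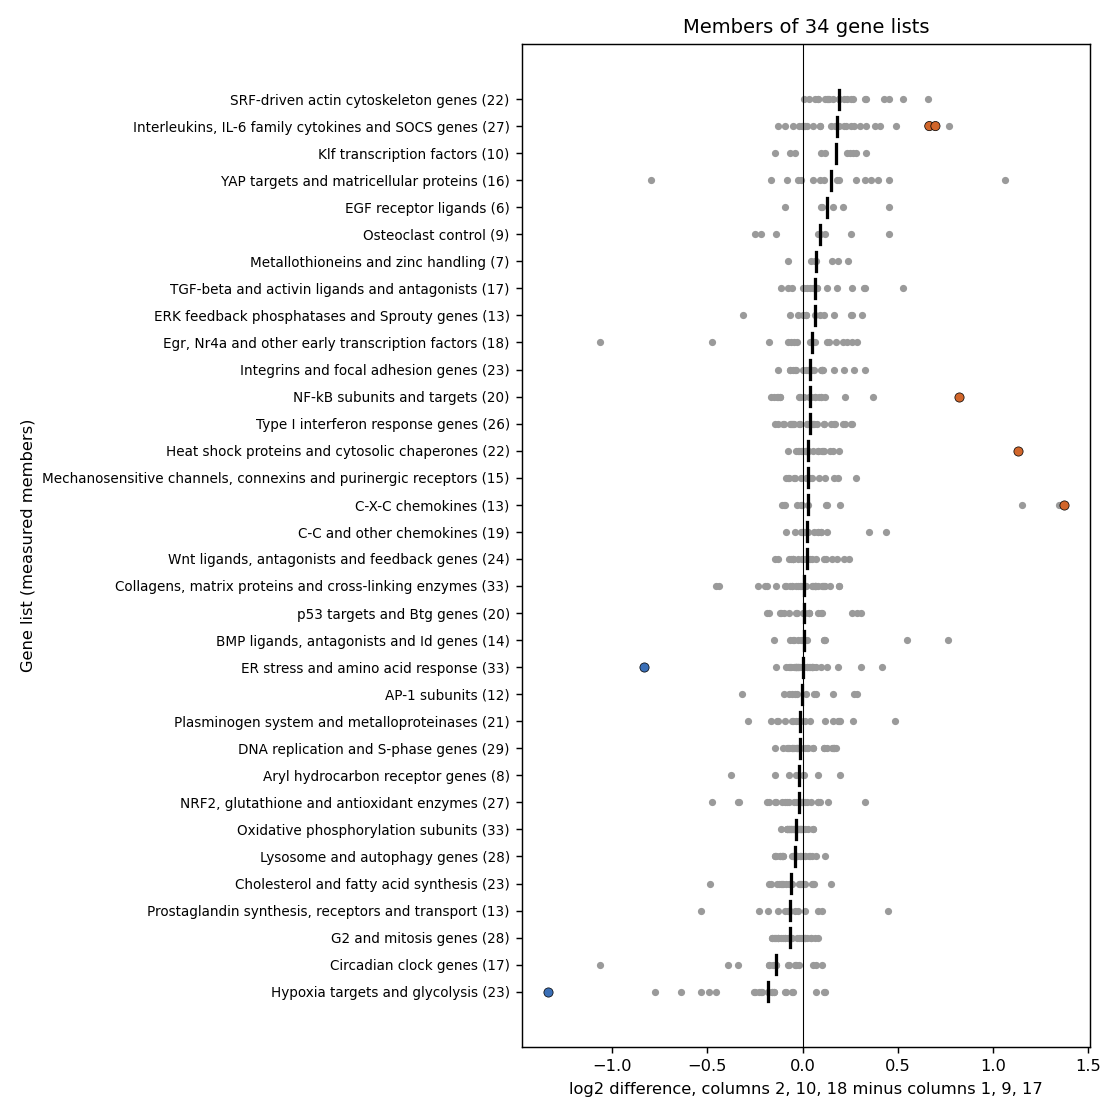
Log2 differences (columns 2, 10 and 18 minus columns 1, 9 and 17) of the measured members of 34 gene lists, given in parentheses, with black ticks at the list medians, grey points for genes not called and coloured points for called genes (orange higher, blue lower). The medians run from -0.18 for hypoxia targets and glycolysis to 0.19 for actin cytoskeleton genes, and most called genes stand far from the other members of their list.

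Of the 34 lists 6 held a called gene, and together they held 7 of the 17 called genes. Some lists leaned to one side with few or no called members. The 22 measured actin cytoskeleton genes driven by SRF, the transcription factor that responds to free actin, all had the higher mean in columns 2, 10 and 18, with a median of 0.19; 0 were called, and 4 did not overlap (Tpm1, Actg1, Tpm4 and Actb), where 7.77% of all genes were higher without overlap. The lean came largely from column 18: the median within the blocks was 0.15, 0.08 and 0.39, and without column 18 (flow 8 h replicate 3) it was 0.07 with 16 of the 22 higher, against 0.30 without column 10 (flow 2 h replicate 1). After a further quantile normalization 21 of the 22 were higher. Pdlim5, which links signalling proteins to actin filaments, read 9.73, 9.84 and 10.03 in columns 1, 9 and 17 and 10.53, 10.00 and 11.05 in columns 2, 10 and 18, and Srf itself differed by 0.45 ± 0.14, both with overlap.

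Targets of YAP, a coactivator that responds to cell shape, had a median of 0.15 over 16 measured genes. Within the blocks it was 0.0046, 0.11 and 0.43, and it was 0.04 without column 18 (flow 8 h replicate 3), 0.07 without column 9 (sham 2 h replicate 3), 0.26 without column 1 (sham 0 h replicate 1) and 0.28 without column 10 (flow 2 h replicate 1). Lats2, a kinase that restrains YAP, read 8.54, 8.49 and 8.72 against 8.95, 8.83 and 9.33 and differed by 0.45 ± 0.11 without overlap. Thbs1, a matricellular protein, differed by 1.06 ± 0.49 and Ccn1, another secreted matrix protein, by -0.79 ± 0.50, in opposite directions and both with overlap. Of 17 measured clock genes 14 had the lower mean with a median of -0.14, and 0 were free of overlap. Their median within the blocks was -0.16, -0.17 and 0.03, so that block 3 had the opposite sign, and it was -0.06 with the mean of all probe sets, -0.07 without column 2 (sham 0 h replicate 2), -0.08 without column 17 (flow 8 h replicate 2) and -0.09 without column 10 (flow 2 h replicate 1). Of 33 measured genes of the ER stress and amino acid response, only Ddit4 was called, where 0.0807% of all genes were called lower.

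The called genes followed different courses over the other sets. The set of columns 1, 9 and 17 had the highest mean of the 8 sets for Ccng2, Eno2, Hilpda, Abhd18, Pnrc1 and Ddit4, and the second highest for Bnip3, Ak4, Mxi1 and Mgarp, after columns 3, 11 and 19. For Ddit4 the compared sets had the highest means of the 8: columns 1, 9 and 17 had a mean of 11.62 ± 0.45 (SD, n = 3) and columns 2, 10 and 18 of 10.79 ± 0.12, while columns 3, 11 and 19 and columns 4, 12 and 20 were at 9.79 ± 0.36 and 9.77 ± 0.55. Bnip3 alternated over these sets instead, with 10.94 ± 0.27, 9.60 ± 0.85, 11.33 ± 0.29 and 9.34 ± 0.53 in these 4 sets in the same order. The ranges of columns 1, 9 and 17 and columns 3, 11 and 19 overlapped, and so did those of the other sets. Ccng2 alternated as well, with 7.83 ± 1.25, 5.62 ± 0.27, 7.65 ± 1.32 and 6.15 ± 0.20. The inflammatory genes Cxcl1, Nfkbiz, Zc3h12a and Lif had their highest mean in columns 4, 12 and 20, with columns 2, 10 and 18 second, whereas Tnf was highest in columns 2, 10 and 18. Hspa1b had its lowest mean of all sets in columns 1, 9 and 17.

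**Figure D5:**
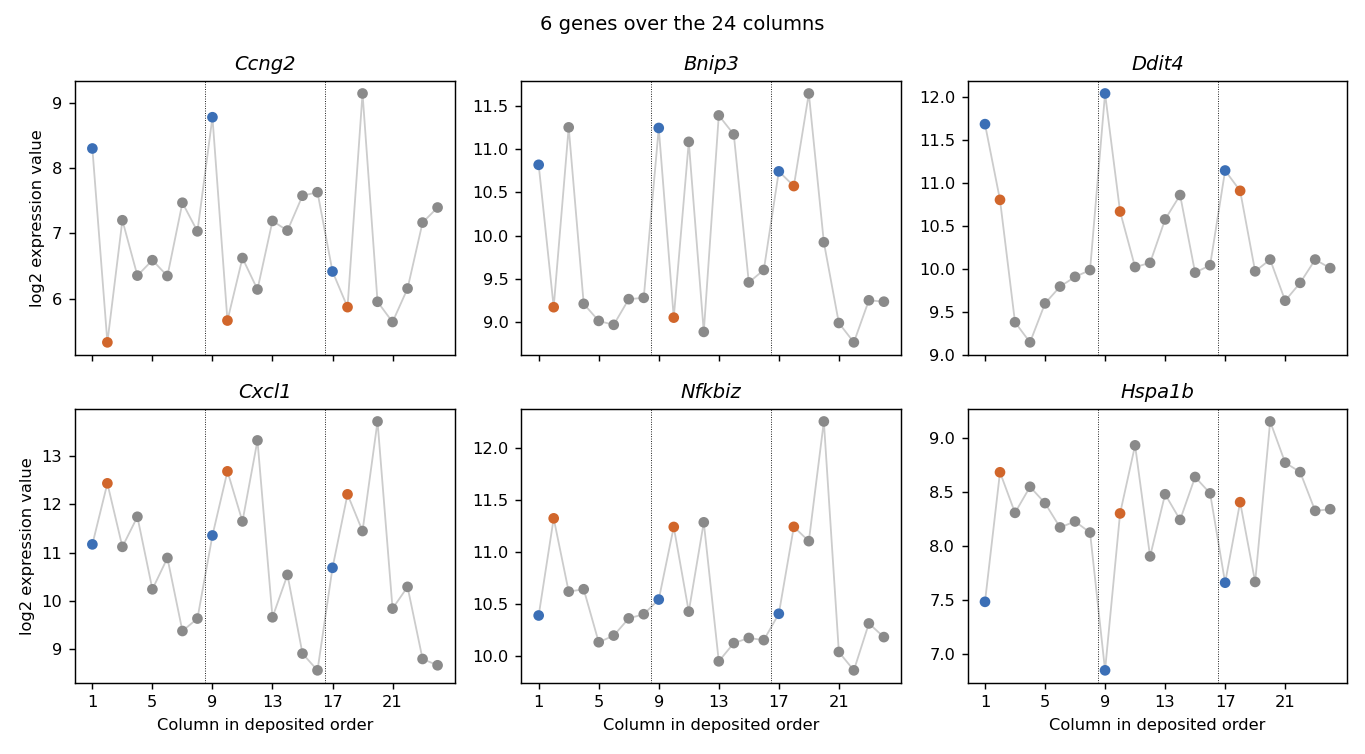
Log2 expression values of 6 called genes over the 24 columns in deposited order, with columns 1, 9 and 17 in blue, columns 2, 10 and 18 in orange, the other arrays in grey and dotted lines between blocks of 8 columns. Bnip3 is high in columns 1, 9 and 17, in columns 3, 11 and 19, and also in columns 13, 14 and 18, whereas Ddit4 is highest at the start of each block, and Cxcl1 peaks in columns 12 and 20.

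The neighbouring comparison of columns 4, 12 and 20 with columns 3, 11 and 19 uses other arrays. By the same rule 5 genes (0.0403%) were called higher and 21 (0.169%) lower there. For Bnip3 the log2 difference was -1.34 between the sets described here and -1.98 in that comparison, for Ccng2 -2.21 and -1.51, for Eno2 -1.24 and -1.16, for Ak4 -1.12 and -1.21, and for Mxi1 -0.80 and -1.20. Cxcl1 gave 1.37 and 1.52 and Nfkbiz 0.82 and 0.68. In the neighbouring comparison the arrays of Eno2 and Nfkbiz overlapped, and so did those of Zc3h12a, Lif and Tnf. Values were unlike for Hilpda (-0.99 and -0.32), Ddit4 (-0.83 and -0.02), Pnrc1 (-0.86 and 0.28) and Hspa1b (1.13 and 0.23). Whether the comparisons differ was not tested.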

How the data were processed

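RNA of MLO-Y4 cells was measured on 24 Affymetrix arrays. The authors deposited log2 expression values. The submitters' processing notes name RMA, with version and settings not given in the sources used here. RMA combines the probes of a probe set and gives arrays nearly the same distribution, so that values are relative. They were used without further normalization. Every column of the table belonged to a sample.

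Of 22690 probe sets, 20380 carried 1 gene symbol in the platform annotation, updated through Entrez identifiers, 691 several and 1555 none, and 64 were controls. For each of 12393 genes the brightest probe set by its mean of all 24 arrays was kept. Then a linear model with a mean for each of the 8 sets was fitted to the 24 arrays. It used lmFit and eBayes of limma 3.58.1 in R 4.3.3. Its difference and moderated standard error are given without p-values, because the sets came from the similarity of the same values. The moderated error uses a spread pooled over all 8 sets and drawn towards that of all genes. The model held no term for the block of 8 columns, so spread between blocks enters the standard errors. The model was tested on simulated data. The members, gene lists and tests were chosen with earlier results of these data known, and the lists of HIF-1 and early NF-kB targets and the hypoxia motif after the values were seen. Named genes were up to 15 called genes in each direction with a mean of at least 6 in the higher set, up to 4 members per list without overlap, genes the paper names, osteocyte markers, and all members of the list with most calls. Lrrc17, which the paper names, had no probe set with 1 symbol. Genes given with overlap as members of a list, and Tnfsf9, Tfrc, Abhd18 and Cpeb2, were chosen after their values were seen.

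The alternatives were removal of dim genes (those with log2 values of 6 or more in fewer than 3 arrays), averaging a gene's probe sets, every probe set by itself, quantile normalization again, centring, removal of the block of 8 columns or of the labels' replicate number, other call rules, and each array left out in turn. Replicate numbers of the labels did not pair the arrays, since arrays of the same number had a mean correlation of -0.040 to -0.028.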

Additional observations from a re-analysis of the deposited data

How the results depend on the processing

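The main counts were 7 genes higher and 10 lower in columns 2, 10 and 18. The filter on dim genes gave 6 and 9, the mean of all probe sets 7 and 9, a further quantile normalization 7 and 9, and centring 7 and 10. When a gene's probe sets were averaged, only 6 of the main higher calls and 8 of the main lower calls were kept. Lif, Mxi1 and Pnrc1 then dropped out, and Pdlim5 (higher) and Higd1a (lower) came in. Mgarp dropped out after the further quantile normalization. With all probe sets the counts were 14 and 20 probe sets, with a 2-fold minimum 2 and 4 genes, with 1.5-fold alone 16 and 18, and with the same sign in 3 blocks 15 and 14. Removal of the block of 8 columns gave 13 and 10 genes; Lif and Mgarp were lost, and Cxcl2 and Cxcl5 were among those gained. The replicate block gave 7 and 10, of which 6 and 8 were shared with the main calls, and Lif, Ak4 and Mgarp were lost. The replicate numbers do not pair these arrays, and the reason for these losses was not tested. Leaving out an array gave 8 to 23 genes higher and 11 to 24 lower. The count of higher genes was 13 without sham 0 h replicate 1, 14 without flow 8 h replicate 2, 23 without flow 2 h replicate 1 and 15 without flow 8 h replicate 3, and that of lower genes 21 without flow 8 h replicate 2, 16 without sham 0 h replicate 2, 17 without flow 2 h replicate 1 and 24 without flow 8 h replicate 3; fewer arrays overlap less often by construction. Lif was lost without flow 8 h replicate 2 or flow 2 h replicate 1, Mgarp without sham 0 h replicate 2, and Zc3h12a and Cpeb2 without flow 8 h replicate 3. Further alternatives were chosen after seeing the data: removing block and replicate number together gave 14 and 10 genes, without Ak4, Bnip3 and Mgarp, and no overlap alone gave 963 and 474. The mean within-set correlation exceeded that between the sets by 0.0406, and by 0.107 with both removed. Each of the 17 called genes kept its direction wherever it was measured under these alternatives, those with every probe set by itself not counted. Where the arrays of the sets do not overlap, leaving out an array or changing the call rule cannot reverse the direction. The kept direction is thus no separate support for these genes. The precision is limited by 3 arrays a set.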
